A study of Mus musculus with 36 samples.

Results

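Il10 encodes interleukin-10, the cytokine with which T cells limit their own effector functions and those of the antigen-presenting cells that they meet. The accessibility of its chromatin was examined in mouse CD4 T cells together with that of 3 genes that act on it, namely Maf, Ahr and Il27ra. ATAC-seq peaks were taken as belonging to a gene when their midpoint lay closer to one of its protein-coding transcription start sites (TSS) than to that of any other protein-coding gene, or when they overlapped its gene body. By this rule 101 of the 71509 peaks of the series were members, with 15 at Il10, 63 at Maf, 21 at Ahr and 2 at Il27ra. The rule used positions and no measured value. Maf lies in a region poor in coding genes, and its peaks reached 618 kb downstream of its TSS. When the TSS of every annotated gene was considered, long non-coding RNAs included, all 15 peaks stayed with Il10 and both with Il27ra, but 4 with Maf and 3 with Ahr. The assignment of distal peaks to Maf and Ahr therefore rests on the choice of annotation.

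The labels gave 12 groups of 3 libraries, all from spleen, in the HP1a line and the HP1g line, written here HP1α and HP1γ. In each line, WT and KO cells were profiled as naive CD4 T cells, as conventional T cells (Tconv) recovered after transfer, and as Tconv that had been transferred with regulatory T cells (Treg). HP1α KO cells carried a germline deletion of the gene, obtained from a floxed allele through CMV-cre, and were compared with WT littermates. HP1γ KO cells came from mice with a floxed gene and Cd4-cre, in which deletion is limited to cells that have expressed Cd4, and their WT controls were floxed littermates without Cre. The WT and KO mice were on a mixed 129/Sv and C57BL/6 background, sex-matched and 6 to 12 weeks old. The hosts of every transferred group were irradiated C57BL/6 mice that received bone marrow of C57BL/6 and of B6D2F1 donors, and the Treg were WT cells expanded ex vivo. After 3 weeks, donor-reactive Tconv were sorted by their TCR Vβ6 chain as cells lacking the Thy1.1 reporter of the Treg. No label says whether the libraries of a group came from separate animals, so the p-values measure the spread between these libraries.

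In T helper cells, interleukin-27 signals through a receptor that contains the Il27ra chain and activates STAT3. This signal induces c-Maf, a basic leucine zipper factor, and the aryl hydrocarbon receptor encoded by Ahr, a ligand-activated factor of the bHLH-PAS family. Both factors are known to bind the Il10 locus and to drive its expression in type 1 regulatory T cells, together with AP-1 factors such as BATF.

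Libraries held from 1.49 to 96.8 M (mega) reads in peaks. The shallowest libraries were those of HP1α cells with Treg, with 12.7, 1.49 and 3.2 M in WT and 50.7, 7.12 and 5.73 M in KO. WT replicate 3 and KO replicates 2 and 3 of that condition had not been used by the study, which names low signal as the reason. HP1α comparisons with Treg are therefore given for the kept libraries, which set 1 KO library against 2 WT libraries, and again for all 6. The naive libraries formed a separately numbered set in the labels, so that this set and the naive state cannot be told apart. Of the targeted genes, the TSS peak of Cbx3, which encodes HP1γ, had log2 fold changes between KO and WT of 0.02, 0.02 and 0.11 in naive cells, Tconv and Tconv with Treg, and that of Cbx5, which encodes HP1α, had 0.01, 0.10 and 0.12 in the kept libraries. Another Cbx5 peak, at 2.28 kb downstream, had -0.08, -0.88 and -0.48 in the same comparisons. None was called, and an open TSS does not report on a deleted exon. The labelled cell type was checked on 7 markers of CD4 T cells, and a TSS peak was found for each of them, whereas Cd8a, Lyz2 and the NK cell markers had none. TSS peaks were also found for Cd8b1, with 29.5 to 35.9 CPM (counts per M) in naive libraries, for the B cell marker Pax5, and for Itgam, Spi1 and Cd14 among 7 myeloid markers. At the TSS peak of Cd4, CPM ranged from 511 to 730 in the HP1γ KO libraries, which carry Cd4-cre, and from 80.3 to 119 in the HP1γ WT libraries, and the cause was not tested.

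The Il10 gene lies on the plus strand of chromosome 1, from 130947581 to 130952711 on GRCm39. Its 15 peaks ran from 31.9 kb upstream to 18.8 kb downstream of the TSS. The TSS itself lay in a peak of 4830 bp (130946421 to 130951250) that covered most of the gene. Central stretches of the 3 distal peaks on which the results turn are printed 5′ to 3′ on the plus strand of GRCm39. All 3 were higher in Tconv than in naive cells in both HP1γ genotypes. Those at 20.1 kb upstream and 18.8 kb downstream also differed between the HP1γ genotypes with Treg. Capitals mark matches to AP-1 (TGANTCA), the MARE core bound by MAF factors (TGCTGA), the AHR core (GCGTG) or a STAT site (TTCNNNGAA) on either strand. These are the stretch at 26.0 kb upstream (chr1:130921401-130921700), that at 20.1 kb upstream (chr1:130927326-130927625) and that at 18.8 kb downstream (chr1:130966261-130966560).
Il10 peak, 26.0 kb upstream: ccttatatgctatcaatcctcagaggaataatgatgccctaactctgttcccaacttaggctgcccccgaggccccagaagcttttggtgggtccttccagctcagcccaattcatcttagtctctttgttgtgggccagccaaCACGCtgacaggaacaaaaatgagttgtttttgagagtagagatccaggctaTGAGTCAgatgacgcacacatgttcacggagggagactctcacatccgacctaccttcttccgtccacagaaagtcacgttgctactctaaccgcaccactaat
Il10 peak, 20.1 kb upstream: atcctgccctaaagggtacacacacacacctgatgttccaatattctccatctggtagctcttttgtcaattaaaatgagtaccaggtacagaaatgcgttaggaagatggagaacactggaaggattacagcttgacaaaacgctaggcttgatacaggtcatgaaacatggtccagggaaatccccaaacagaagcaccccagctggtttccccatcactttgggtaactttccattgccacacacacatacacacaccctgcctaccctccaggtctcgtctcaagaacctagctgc
Il10 peak, 18.8 kb downstream: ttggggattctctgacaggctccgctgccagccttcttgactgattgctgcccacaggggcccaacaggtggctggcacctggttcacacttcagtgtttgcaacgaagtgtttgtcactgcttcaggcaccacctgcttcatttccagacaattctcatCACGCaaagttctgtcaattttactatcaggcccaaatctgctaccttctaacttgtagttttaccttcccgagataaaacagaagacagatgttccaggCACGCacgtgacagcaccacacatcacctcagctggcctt

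The stretch at 26.0 kb upstream held 1 AP-1 match, starting at base 197, and 1 AHR core read on the opposite strand. That at 18.8 kb downstream held 2 AHR cores on the opposite strand, at bases 161 and 261. The stretch at 20.1 kb upstream held none of the 4 motifs, which says only that these letters are not in this window. In the central 300 bases of the peaks, an AP-1 match was found in 8 of the 15 Il10 peaks (53.3%), against 13.0% of all peaks. The AP-1 matches lay at 31.9, 27.6, 26.0, 23.7, 11.4 and 9.11 kb upstream, in the TSS peak and at 6.31 kb downstream. The MARE core and the AHR core were each found in 4 of 15 (22.7% and 23.7% of all peaks), and the STAT site in 0 of 15 (8.89% of all peaks).

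Il10 chromatin was nearly closed in naive cells and opened throughout after transfer. A peak was called when the edgeR quasi-likelihood F test gave a Benjamini-Hochberg adjusted p under 0.05 over all peaks and an absolute log2 fold change over 1. Summed over the 15 peaks, HP1γ WT cells had 16.5 ± 1.96 CPM (SD, n = 3) when naive and 317 ± 36.1 as Tconv. Of the 15 peaks, 14 were higher in Tconv than in naive cells, with a median log2 fold change over all 15 of 4.37 against 0.08 over all peaks tested, of which 24.5% were called higher and 22% lower. The uncalled peak, at 13.8 kb upstream, had 0.91 on the log2 scale.
At the TSS peak, the HP1γ WT naive libraries had 1.53, 0.936 and 0.904 CPM and the WT Tconv libraries 44.5, 56.7 and 66.5 CPM, a log2 fold change of 5.72 ± 0.38 (SE, adjusted p = 1.88e-10). The most strongly read element was that at 26.0 kb upstream (130920491 to 130922610), with 7.15, 5.93 and 5.95 CPM in WT naive cells and 88.3, 98.9 and 91.5 CPM in WT Tconv (3.94 ± 0.12, adjusted p = 1.26e-13). At both elements the lowest Tconv library lay far above the highest naive library. HP1γ KO cells opened the locus too, with 15 of 15 Il10 peaks called higher in KO Tconv than in KO naive cells (22.4% of all peaks called higher, 20.6% lower), and so did HP1α WT cells (14 of 15, against 24.9% and 17.5%) and HP1α KO cells (14 of 15, against 23.5% and 19%).

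**Figure D1:**
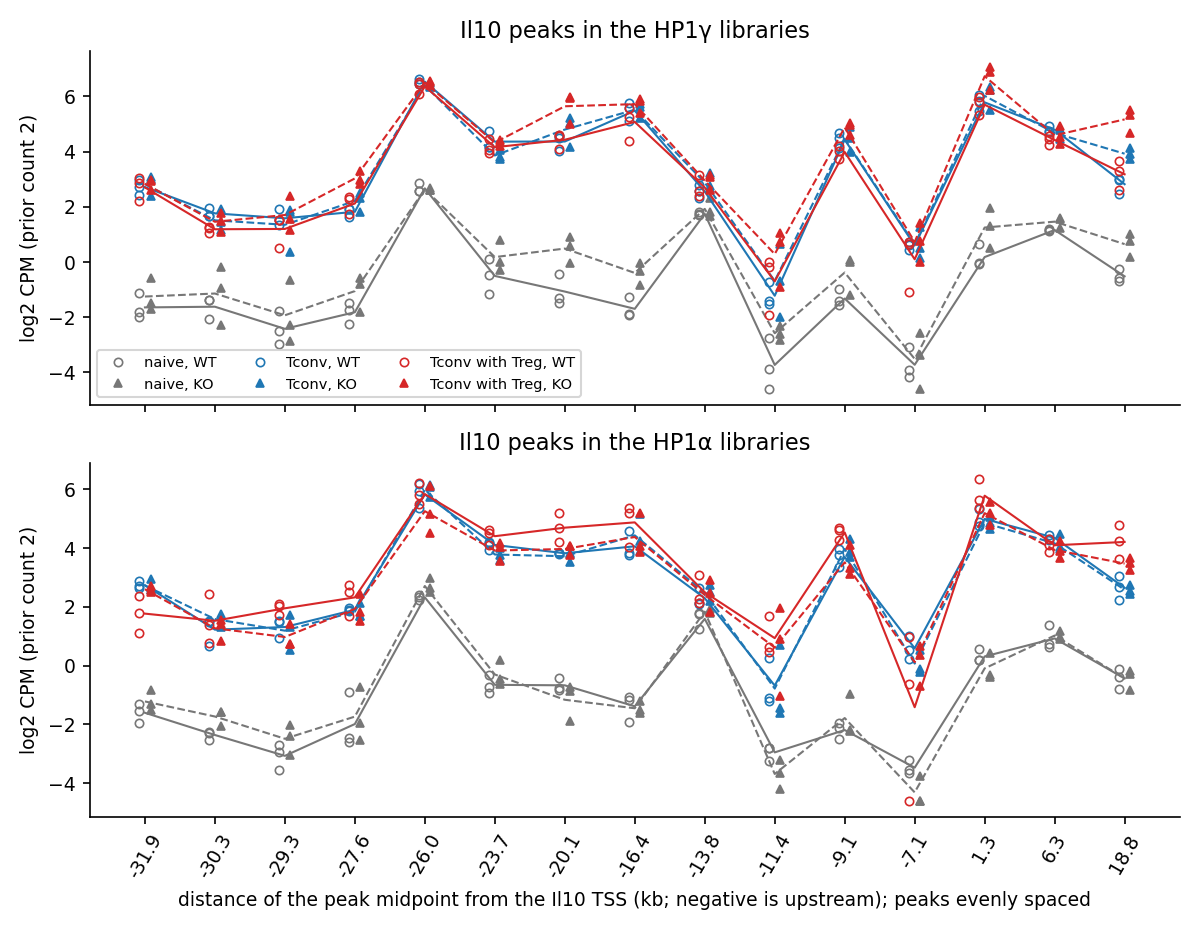
Log2 CPM of the 15 Il10 peaks, ordered by distance from the TSS in kb, in the HP1γ libraries (upper panel) and the HP1α libraries (lower panel). Points are single libraries, open circles WT and filled triangles KO, and lines join group means (solid WT, dashed KO). In both panels the naive libraries (grey) sit lowest at nearly every peak, and in the HP1γ panel the KO cells with Treg (red triangles) stand above the WT cells with Treg at 20.1 kb upstream, at the TSS and at 18.8 kb downstream.

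HP1γ KO and WT cells that had been transferred with Treg differed at Il10. Il10 is among the genes that the study itself listed for HP1γ partly from these libraries, so its direction here is not independent evidence. In Tconv with Treg, all 15 Il10 peaks had a log2 fold change between KO and WT above 0, with a median of 0.52 against -0.02 over all peaks, and 3 of them were called higher in KO and 0 lower (6.48% of all peaks called higher, 5.38% lower). The 3 were the TSS peak and the elements at 20.1 kb upstream (130926101 to 130928850) and 18.8 kb downstream (130965591 to 130967230). Over the 101 members 18 peaks were higher and 4 lower, and these 22 became 14 without KO replicate 1, 37 without KO replicate 2 and 11 without WT replicate 2.
At 18.8 kb downstream, the WT libraries with Treg had 12.5, 9.69 and 6.05 CPM and the KO libraries 45.4, 25.6 and 39.8 CPM. No KO library fell within the WT range, and the log2 fold change was 1.87 ± 0.21 (SE, adjusted p = 3.19e-05).
At 20.1 kb upstream, WT libraries had 24.5, 23.8 and 17.1 CPM and KO libraries 63.9, 32.0 and 61.0 CPM, without overlap (1.21 ± 0.25, adjusted p = 0.00314).
The TSS peak had 63.3, 55.9 and 39.7 CPM in WT and 135, 76.1 and 117 CPM in KO, again without overlap (1.01 ± 0.23, adjusted p = 0.00484). Its fold change lay just past the threshold, and under 6 of 16 alternative settings it lay just under it, while its adjusted p stayed at or below 0.035.

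The other Il10 peaks differed less. The KO libraries also lay above all WT libraries at 27.6 kb upstream (0.93 ± 0.19, adjusted p = 0.00315) and at 9.11 kb upstream (0.85, adjusted p = 0.00729). Both peaks passed the test but not the fold threshold. How many of all peaks had non-overlapping genotypes was not computed. The element at 26.0 kb upstream had 92.1, 88.2 and 68.5 CPM in WT and 93.2, 85.9 and 93.1 CPM in KO, with overlapping groups and a log2 fold change of 0.12 (adjusted p = 0.38). Summed over the locus, WT cells with Treg had 282 ± 49.0 CPM (SD, n = 3) and KO cells 449 ± 87.9.
In these bulk libraries, a larger share of cells with an open locus and a more open locus per cell cannot be told apart. The WT libraries were the shallower ones, with 51.7, 41.4 and 19.4 M reads against 64.2, 60.5 and 39.6 M in KO. With log2 depth as a covariate the Il10 fold changes were 1.85 (adjusted p = 0.000139) at 18.8 kb downstream, 1.25 (adjusted p = 0.00637) at 20.1 kb upstream and 0.96 (adjusted p = 0.0133) at the TSS. Reads in TSS peaks made up 58.6% to 60.6% of WT and 60.1% to 62.3% of KO libraries. Summed over the TSS peaks of 5 Treg markers (Foxp3, Ikzf2, Il2ra, Nrp1 and Tnfrsf9), KO libraries had 379 to 409 CPM and WT libraries 280 to 353 CPM. Among all peaks of these markers, the called ones of Ikzf2 were higher in KO (log2 fold changes of 1.14 to 2.13). Those of Il2ra were lower (-1.54 to -1.35), and those of Nrp1 went both ways. The TSS peak of the B cell marker Pax5 had 8.28 to 11 CPM in KO and 4.03 to 8.43 CPM in WT, and 3 of 7 myeloid markers with one summed to 22.0 to 26.8 CPM and 25 to 30.0 CPM. Called peaks of the B cell markers Blk (1.37 to 1.86) and Pax5 (1.91) and of the myeloid marker Cd14 (2.53) were higher in KO. Those of the myeloid marker Itgam (-1.98 to -1.19) and the NK cell markers Klra8 (-1.80) and Klrb1c (-1.16 and -1.02) were lower. The part of these cells in the Il10 result was not tested.

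**Figure D2:**
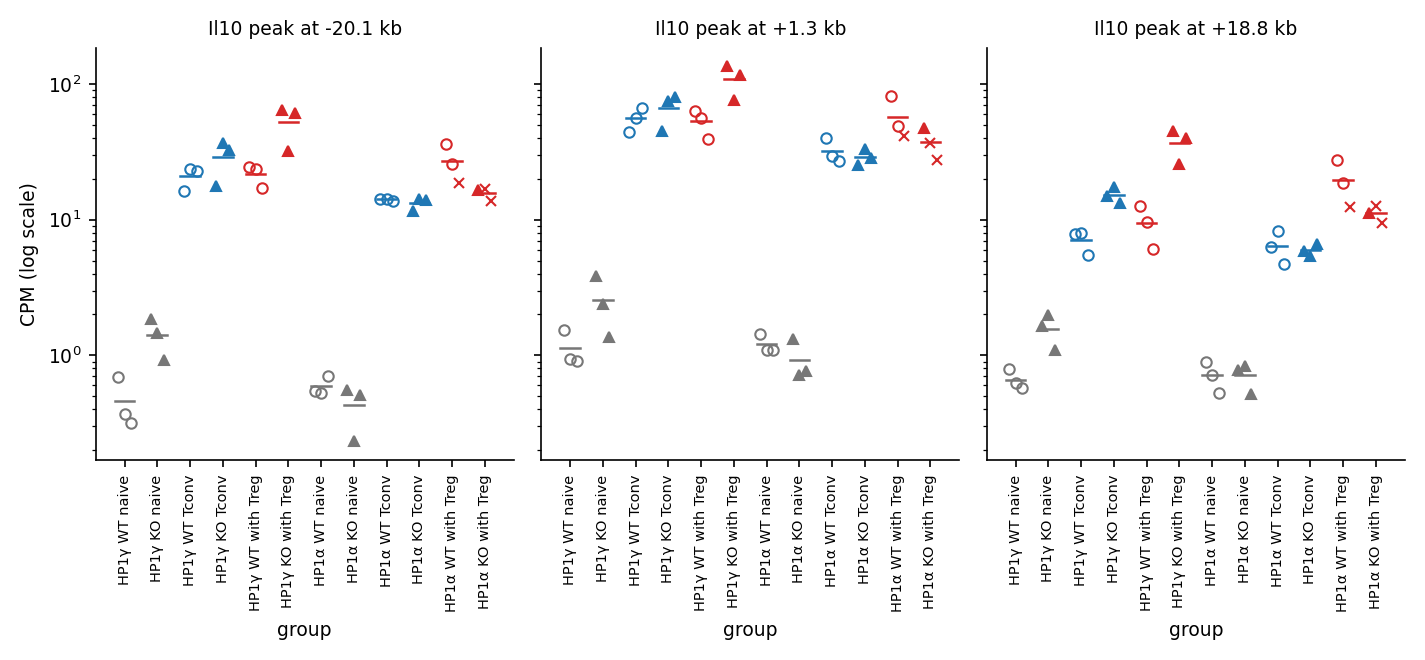
CPM on a log scale of the 3 Il10 peaks that were higher in HP1γ KO than in WT cells with Treg, in every library of the 12 groups. Circles are WT and triangles KO libraries, crosses are the 3 HP1α libraries that the study left out, and bars are group means. At 18.8 kb downstream the 3 HP1γ KO libraries with Treg range from 25.6 to 45.4 CPM and stand above the WT libraries of that condition, whereas HP1α KO libraries with Treg range from 9.53 to 12.7 CPM.

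No Il10 peak of HP1γ WT cells was called for exposure to Treg. With Treg against Tconv, 0 of 101 member peaks were called in either direction in WT cells (0.0671% of all peaks higher, 0.0699% lower). An unadjusted p under 0.05 was found at 20 of the 101, and at 14522 of the 71508 peaks tested. DESeq2 called 2 members. Without WT Tconv replicate 3, 3 were called. The deviations of same-numbered libraries from their group means correlated (r = 0.29, 0.20 and 0.23), although no label says what a number stands for. With the number as a block 4 were called and none at Il10. They lay at Maf, at 407.5 (-1.13), 470.6 (1.31) and 476.9 kb downstream (1.45), and at Ahr, at 63.4 kb upstream (-1.90). The Il10 TSS peak had a log2 fold change of -0.05 and the element at 18.8 kb downstream 0.48 (adjusted p = 0.302).
In HP1γ KO cells, 1 Il10 peak was called higher with Treg, the element at 18.8 kb downstream (1.28 ± 0.19, adjusted p = 0.000349), where the KO Tconv libraries had 15, 17.5 and 13.3 CPM. The TSS peak (0.69, adjusted p = 0.0386) and the elements at 20.1 kb (0.84, adjusted p = 0.0227) and 27.6 kb upstream (0.86, adjusted p = 0.00392) passed the test below the fold threshold. Over the 101 members, 17 peaks were higher and 2 lower in KO cells (6.1% and 2.06% of all peaks), and these 19 became 11 without KO replicate 1 with Treg and 29 without KO replicate 2 with Treg. Between these libraries the Pax5 TSS peak had 5.03 to 6.41 CPM without and 8.28 to 11 CPM with Treg, and the Treg marker sum 336 to 368 and 379 to 409 CPM, both without overlap, and their part in the result was not tested.
The difference between the genotypes in their response to Treg was tested by itself, as an interaction term. It was called for 0 member peaks in edgeR and in DESeq2 (0.0014% of all peaks higher, 0% lower). Its unadjusted p was under 0.05 at 14 of 101 members and at 9150 of the 71508 peaks tested. At 18.8 kb downstream of Il10 the term was 0.80 (adjusted p = 0.346), and the effect of HP1γ loss at Il10 was thus not shown to differ between Tconv with and without Treg.

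Without Treg, HP1γ loss moved 1 Il10 peak. The element at 18.8 kb downstream had 7.86, 7.99 and 5.51 CPM in WT Tconv, below all KO Tconv libraries (1.07 ± 0.23, adjusted p = 0.0122). No other Il10 peak was called, and the TSS peak had 44.5 to 66.5 CPM in WT and 45.0 to 80.4 CPM in KO (0.27, adjusted p = 0.548). Among all members 1 peak was higher and 10 were lower in KO Tconv (1.69% of all peaks higher, 1.66% lower), and these 11 became 1 without KO replicate 3, 7 without KO replicate 2, 5 without WT replicate 1 and 4 without WT replicate 2.
In naive cells no Il10 peak was called, although 14 of the 15 had a log2 fold change above 0, with a median of 0.70 against 0.03 over all peaks. At 18.8 kb downstream the KO naive libraries (1.65, 1.97 and 1.09 CPM) lay above the WT naive libraries (0.788, 0.624 and 0.574 CPM), with a log2 fold change of 1.15 that did not pass the test (adjusted p = 0.617). This element was thus the one Il10 peak with non-overlapping HP1γ genotypes and a higher level in KO in all 3 conditions among the 5 peaks that were followed in full. Of all members, 1 peak was higher and 0 lower in naive cells (0.133% and 0.00699% of all peaks), at 231.6 kb downstream of Ahr. DESeq2 called 14 members and a fit of the naive groups alone 8, while 0 were called with log2 depth as a covariate or with loess offsets.

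**Figure D3:**
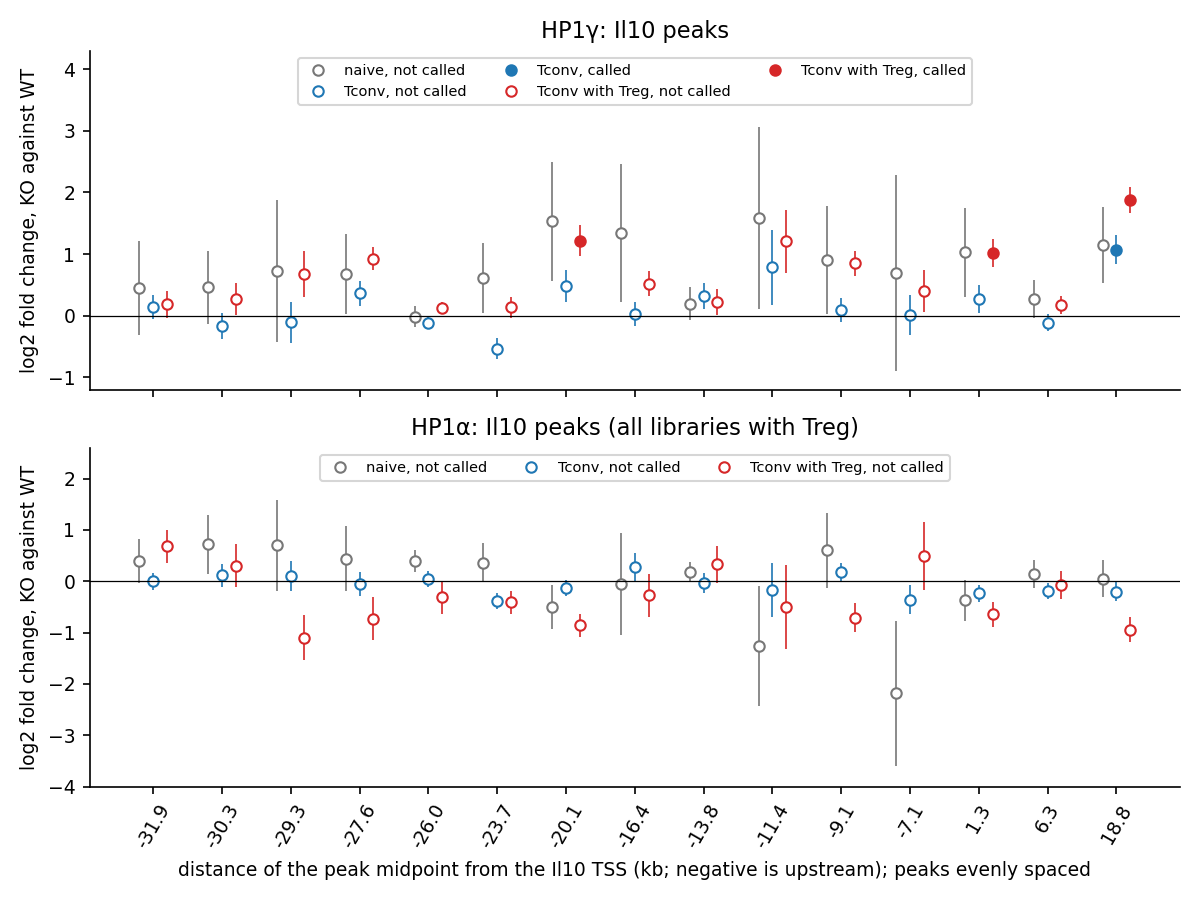
Log2 fold changes of the 15 Il10 peaks between KO and WT cells with their standard errors, for HP1γ (upper panel) and HP1α (lower panel, all libraries with Treg), by distance from the TSS in kb. Filled points passed the call. With HP1γ, the 3 filled points with Treg lie at 20.1 kb upstream, at the TSS and at 18.8 kb downstream, and with HP1α no point is filled.

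With HP1α loss, 4 of the 15 Il10 peaks had a log2 fold change above 0 in cells with Treg, with a median of -0.28 in the kept and -0.41 in all libraries (-0.11 and -0.07 over all peaks). In Tconv 5 of 15 lay above 0 (median -0.05), and in naive cells 10 of 15 (median 0.19), the same sign as with HP1γ loss. In naive cells 0 of 101 members were called (0.0042% of all peaks higher, 0.0014% lower), and none in DESeq2. No member had an unadjusted p under 0.05, against 835 of the 71509 peaks tested. In Tconv 0 of 101 were called (0.00839% and 0.0126% of all peaks), 0 in DESeq2, and 3 without KO replicate 1. The unadjusted p was under 0.05 at 10 of 101 members and at 3450 of the 71509 peaks tested.
With Treg, at 18.8 kb downstream of Il10, the WT libraries had 27.3, 18.7 and 12.3 CPM and the KO libraries 11.2, 12.7 and 9.53 CPM, which overlap by 1 library. Between the 2 kept WT libraries and the 1 kept KO library, the element fell by 1.2 on the log2 scale (SE 0.26, adjusted p = 0.0273), and over all 6 libraries it had -0.95 and was not called (adjusted p = 0.0765).
At 20.1 kb upstream, WT libraries had 36.4, 25.7 and 18.6 CPM and KO libraries 16.7, 16.8 and 13.6 CPM, without overlap. The kept libraries gave -1.04 ± 0.24 (adjusted p = 0.0345) and all libraries -0.86 (adjusted p = 0.0786).
Over all members, 0 peaks were higher and 11 lower in the kept HP1α KO library with Treg (0.218% and 1.42% of all peaks), and over all 6 libraries 0 were higher and 3 lower (0.0126% and 0.729%). Without WT replicate 1, both counts became 0. The 11 became 6 without WT replicate 2, and the 3 became 0 without KO replicate 1, 1 without WT replicate 2 and 5 without WT replicate 3. With 1 KO library, its spread was taken to be that of the other groups. Over the 6 libraries the Pax5 TSS peak had 5.21 to 12.9 CPM in KO and 13.3 to 17.1 CPM in WT, and the 3 myeloid TSS peaks summed to 25.1 to 27.7 and 17.1 to 19.8 CPM, both without overlap. The Treg marker sum had 175 to 302 CPM in KO and 195 to 360 CPM in WT. Peaks of Pax5 and Ikzf2 were called lower and of Thy1 higher in KO, and the part of these cells in the HP1α result was not tested.

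HP1α WT cells also differed between Tconv with and without Treg at Il10. In the kept libraries, 3 of the 15 Il10 peaks were higher with Treg, the TSS peak (1.13 ± 0.22, adjusted p = 0.00462) and the elements at 20.1 kb upstream (1.28 ± 0.21, adjusted p = 0.00147) and 18.8 kb downstream (1.96 ± 0.25, adjusted p = 0.000163). Over the members 17 peaks were higher and 1 lower (4.92% and 1.84% of all peaks), and these 18 became 8 without WT Tconv replicate 1 and 0 without WT replicate 1 with Treg. In HP1α KO cells, with 1 kept library with Treg, 0 of 101 members were called between these conditions (0.264% of all peaks higher, 0.284% lower). DESeq2 called 0 as well. The count did not stay at 0 when a KO Tconv library was left out, or with a replicate block over all transferred groups. Between the WT conditions the Pax5 TSS peak had 13.3 to 17.1 CPM with Treg and 4.55 to 6.29 CPM without, and the 3 myeloid TSS peaks summed to 17.1 to 19.8 and 24.7 to 28.8 CPM, both without overlap. The 7 CD4 T cell markers, at 65 peaks, had 10 lower with Treg and 0 higher, at Cd4, Lck and Thy1, and the 5 Treg markers, at 91 peaks, had 16 higher and 4 lower. The part of these cells in the HP1α WT result was not tested.
The test of the difference between HP1α genotypes in this response called 0 peaks higher and 2 lower among the members (0% and 0.0461% of all peaks), both at Maf and both lost when any of 6 of the 8 libraries was left out. At Il10 the element at 18.8 kb downstream had -1.0 (adjusted p = 0.291).

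The TSS peaks of the 4 genes were ordered across the 12 groups. At Il10 the 4 naive groups were lowest, from 0.93 ± 0.33 CPM (SD, n = 3) in HP1α KO to 2.55 ± 1.26 in HP1γ KO. The HP1α Tconv groups followed (29.1 ± 4.16 in KO, 32.2 ± 6.75 in WT), then HP1α KO with Treg (37.3 ± 9.79), and then HP1γ WT with Treg (53.0 ± 12.1), HP1γ WT Tconv (55.9 ± 11), HP1α WT with Treg (57.5 ± 21.5) and HP1γ KO Tconv (67.0 ± 19.2), which differed by less than the SD of the last. HP1γ KO with Treg was highest, at 109 ± 30.1 CPM. Per kb of peak, naive HP1γ WT cells had 0.23 ± 0.07 CPM at the Il10 TSS, against 16.1 ± 0.41 at that of Maf, 16.3 ± 0.39 at that of Ahr and 25.7 ± 1.44 at that of Il27ra, so that the promoters of the 3 other genes were already open in naive cells.

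Maf, on the minus strand of chromosome 8 (116409632 to 116434579), followed activation mainly through distal elements. Its TSS peak (116431151 to 116436740) had 92.4, 88.0 and 89.0 CPM in HP1γ WT naive cells and 147, 155 and 157 CPM in WT Tconv, a log2 fold change of 0.83 ± 0.06 (SE, adjusted p = 4.61e-10) below the fold threshold. Of its 63 peaks, 52 were called higher and 1 lower in WT Tconv (24.5% and 22% of all peaks), with a median log2 fold change of 2.90. The element at 35.1 kb upstream (116468881 to 116470480) had 0.263, 0.163 and 0.244 CPM in WT naive cells and 21.4, 14.4 and 12.4 CPM in WT Tconv (6.24 ± 0.42, adjusted p = 2e-10), and that at 19.1 kb upstream (116452921 to 116454360) rose by 4.87 ± 0.31 (adjusted p = 1.18e-10).
The central stretch of the element at 35.1 kb upstream is printed because this element was called with Treg in both lines, in opposite directions (chr8:116469531-116469830, minus strand of GRCm39, capitals as above).
Maf peak, 35.1 kb upstream: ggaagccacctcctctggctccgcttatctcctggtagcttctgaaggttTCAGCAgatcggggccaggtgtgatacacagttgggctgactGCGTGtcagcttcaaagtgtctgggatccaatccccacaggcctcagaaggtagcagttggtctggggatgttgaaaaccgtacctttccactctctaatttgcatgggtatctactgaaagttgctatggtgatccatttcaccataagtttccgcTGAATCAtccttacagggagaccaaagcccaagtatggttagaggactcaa

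It held 1 AP-1 match, 1 AHR core and, on the opposite strand, 1 MARE core. Over the 63 Maf peaks, 12 held AP-1, 16 the MARE core, 14 the AHR core and 8 the STAT site.

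With Treg, HP1γ KO cells had 9 of 63 Maf peaks higher and 3 lower than WT cells (6.48% and 5.38% of all peaks), and the median over all 63 was 0.02. At 35.1 kb upstream WT libraries had 22.5, 18 and 13.1 CPM and KO libraries 38.7, 33.6 and 42.9 CPM, without overlap (1.04 ± 0.19, adjusted p = 0.00137), and the fold change lay under the threshold in 5 of 16 alternative settings. The higher peaks also included those at 38.0 and 32.2 kb upstream (1.46 and 1.27), at 322.0 kb downstream (1.88 ± 0.36) and at 581.0 kb downstream (1.85 ± 0.44).
The lower peaks lay at 180.8, 211.6 and 529.3 kb downstream. At 529.3 kb downstream (115904971 to 115905510) WT libraries had 2.69, 4.23 and 3.24 CPM and KO libraries 0.511, 1.28 and 1.2 CPM (-1.78 ± 0.30, adjusted p = 0.000653), and this element was lower in KO Tconv without Treg as well (-1.01 ± 0.22, adjusted p = 0.0106). At 180.8 kb downstream (116253611 to 116253880) WT libraries had 2.41, 4.73 and 1.14 CPM and KO libraries 0.630, 0.860 and 0.852 CPM (-1.95 ± 0.39, adjusted p = 0.00162). At both, every KO library lay below the lowest WT library. The Maf TSS peak had 138 to 148 CPM in WT and 158 to 166 CPM in KO, without overlap, and was not called.
HP1γ KO Tconv without Treg had 0 Maf peaks higher and 4 lower (1.69% and 1.66% of all peaks), at 271.5, 407.5, 516.5 and 529.3 kb downstream, with log2 fold changes from -1.37 to -1.01. Without KO replicate 3, 0 members were lower in KO Tconv, and with edgeR's earlier quasi-likelihood method 1 was.

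HP1α KO cells with Treg had 8 Maf peaks lower in the kept libraries (1.42% of all peaks) and 3 lower over all libraries (0.729%), at 35.1 kb upstream and at 480.6 and 595.5 kb downstream. At 35.1 kb upstream the HP1α WT libraries had 37.4, 36.4 and 19.8 CPM and the KO libraries 13.6, 17.7 and 8.44 CPM, without overlap. The element had a log2 fold change of -1.45 ± 0.26 (adjusted p = 0.00801) in the kept libraries and -1.21 ± 0.26 (adjusted p = 0.029) over all 6. In HP1α WT cells it was higher with Treg than without (1.27 ± 0.22, adjusted p = 0.00206), where WT Tconv had 15.6, 16.1 and 13.9 CPM, and KO Tconv had 19.3, 21.5 and 14.7 CPM. At 480.6 kb downstream the WT libraries with Treg ranged from 13.4 to 23.0 CPM and the KO libraries from 8.05 to 14.3 CPM, with a log2 fold change over all 6 of -1.11 ± 0.25 (adjusted p = 0.0363).

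Of the 11 members that were lower in HP1α KO cells with Treg, 9 (81.8%) were higher in HP1γ KO cells with Treg, which is 50% of the 18 that were higher there. The 2 comparisons share no library. Over all peaks 806 of 1012 (79.6%) of the lower peaks were higher with HP1γ, and 1 was lower in both. These 806 are 17.4% of the 4635 peaks that were higher with HP1γ. The share of the HP1α peaks was thus close to that of the whole series, and the share of the HP1γ peaks was larger among the members. Over all HP1α libraries, 2 of 3 lower members and 445 of 521 lower peaks (85.4%) were higher with HP1γ. These are 11.1% and 9.60% of the members and peaks that were higher there.

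**Figure D4:**
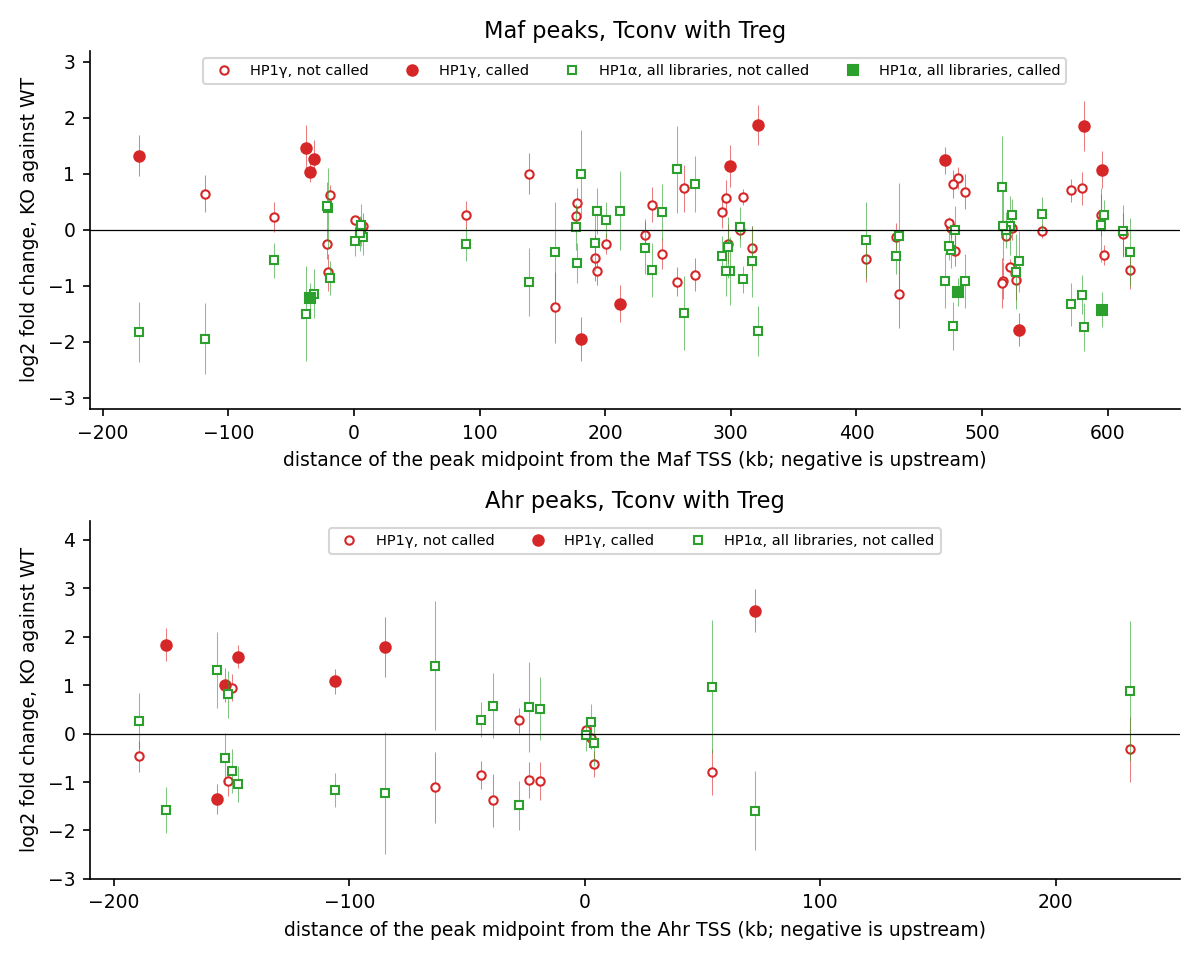
Log2 fold changes between KO and WT Tconv with Treg, with standard errors, of the Maf peaks (upper panel) and Ahr peaks (lower panel) by distance from the TSS in kb. Red circles are HP1γ and green squares HP1α over all libraries, and filled symbols passed the call. Near the Maf TSS the peak at 35.1 kb upstream is filled in both lines, at 1.04 for HP1γ and -1.21 for HP1α, and at Ahr only HP1γ points are filled.

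Ahr lies on the minus strand of chromosome 12 (35547973 to 35585057). Its TSS peak (35583331 to 35585700) varied between group means from 33.9 ± 6.22 CPM (SD, n = 3) in HP1α KO cells with Treg to 47.7 ± 11.7 in HP1α WT naive cells, and it was not called in any comparison of KO and WT. On activation of HP1γ WT cells 17 of the 21 Ahr peaks rose and 1 fell (24.5% and 22% of all peaks), the latter at 231.6 kb downstream (-2.77), with a median log2 fold change of 2.17. HP1γ KO cells had 11 higher and 1 lower (22.4% and 20.6% of all peaks). That distal peak was also the one member called in naive cells, with 1.53 to 2.35 CPM in WT and 3.41 to 4.25 CPM in KO, without overlap (1.16 ± 0.22, adjusted p = 0.0243), and leaving out any of 5 of the 6 naive libraries ended the call.

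With Treg, 6 of the 21 Ahr peaks were higher and 1 lower in HP1γ KO than in WT cells (6.48% and 5.38% of all peaks). At 147.2 kb upstream (35731771 to 35732740) WT libraries had 3.98, 5.90 and 4.76 CPM and KO libraries 13.4, 11.3 and 20.1 CPM (1.59 ± 0.23, adjusted p = 0.00026). At 177.9 kb upstream (35762631 to 35763210) WT libraries had 1.01, 0.921 and 1.67 CPM and KO libraries 3.61, 3.04 and 5.64 CPM (1.83 ± 0.34, adjusted p = 0.00113). At 72.2 kb downstream (35512571 to 35513220) WT libraries had 0.243, 1.02 and 0.666 CPM and KO libraries 4.75, 1.86 and 4.07 CPM (2.54 ± 0.44, adjusted p = 0.000603). The genotypes did not overlap at any of the 3, and all 3 kept their direction and call under 16 of 16 alternative settings.
The lower peak lay at 156.1 kb upstream, with 3.67 to 5.25 CPM in WT and 1.29 to 2.39 CPM in KO (-1.36 ± 0.31, adjusted p = 0.00553).
The central stretch at 177.9 kb upstream is printed because it was the Ahr peak called with Treg in both lines (chr12:35762771-35763070, minus strand of GRCm39).
Ahr peak, 177.9 kb upstream: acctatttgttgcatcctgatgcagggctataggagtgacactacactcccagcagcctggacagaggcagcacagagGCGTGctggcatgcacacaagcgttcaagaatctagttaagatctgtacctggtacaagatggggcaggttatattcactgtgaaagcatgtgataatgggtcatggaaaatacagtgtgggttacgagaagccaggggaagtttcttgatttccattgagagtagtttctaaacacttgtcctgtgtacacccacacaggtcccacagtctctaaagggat

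It held 1 AHR core at base 79. Over the 21 Ahr peaks, 3 held AP-1, 4 the MARE core, 4 the AHR core and 2 the STAT site. In HP1α KO cells with Treg this peak was called lower in the kept libraries (-2.49 ± 0.53) and was not called over all 6. In the kept libraries it lost the call in 7 of 12 alternative settings and had -1.44 without WT replicate 1.

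Without Treg, 0 Ahr peaks were higher and 6 lower in HP1γ KO Tconv (1.69% and 1.66% of all peaks), and none of them was called without KO replicate 3. They lay upstream of the TSS, at 23.9, 28.0, 44.1, 63.4, 151.6 and 156.1 kb, with log2 fold changes from -2.12 to -1.07. At 44.1 kb upstream WT Tconv ranged from 13.3 to 24.7 CPM and KO Tconv from 6.42 to 10.3 CPM, without overlap (-1.19 ± 0.27, adjusted p = 0.0155). Of these 6, the peak at 156.1 kb upstream was lower with Treg as well. In KO cells, 7 Ahr peaks were higher with Treg than without and 0 lower (6.1% and 2.06% of all peaks).

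Il27ra, the receptor chain, lies on the minus strand of chromosome 8 (84756916 to 84769253) and had 2 peaks, at its TSS (84767731 to 84770030) and over an exon at 3.24 kb downstream (84765621 to 84766370). Neither was called in any of the 17 comparisons. The TSS peak had 58.6, 55.6 and 40.9 CPM in HP1γ WT cells with Treg and 53.8, 56.9 and 49.6 CPM in KO cells, and the exonic peak 4.35 to 6.47 and 3.66 to 5.83 CPM, with overlapping groups at both. Between Tconv and naive HP1γ WT cells they had log2 fold changes from 0.14 to 0.46.

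**Figure D5:**
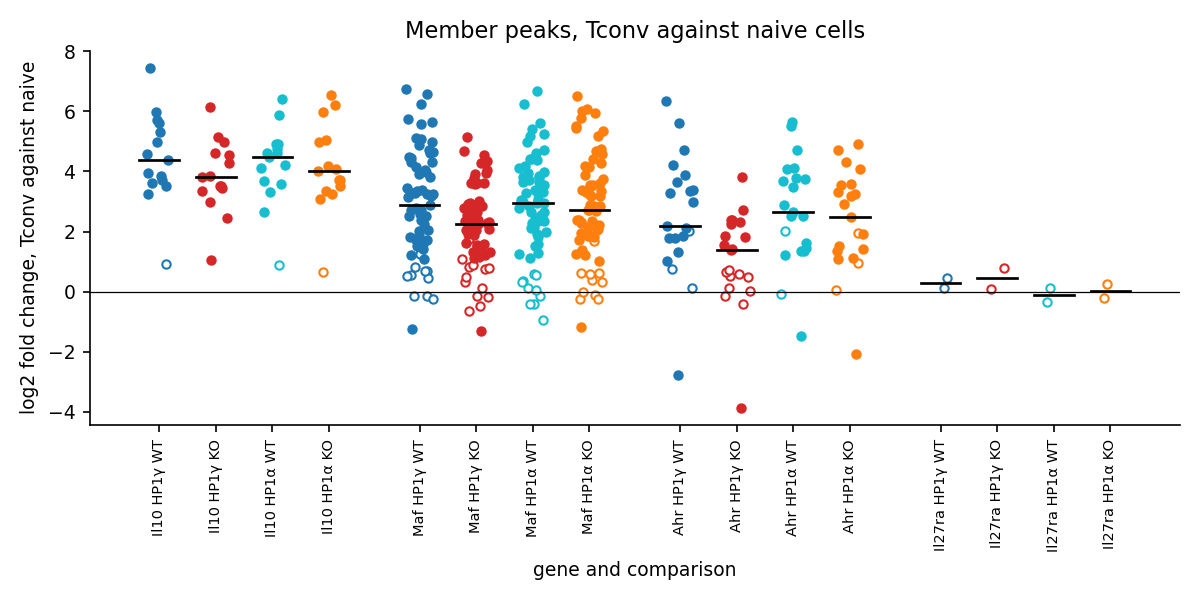
Log2 fold changes between Tconv and naive cells of the member peaks of each gene, in WT and KO cells of both lines. Points are peaks, filled when called, and bars are medians. In HP1γ WT cells the medians are 4.37 at Il10, 2.90 at Maf and 2.17 at Ahr. The Il27ra peaks lie between -0.34 (HP1α WT) and 0.78 (HP1γ KO), and none is called.

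The rest of the pathway was read through lists of genes, each taken with the peaks nearest to its TSS and compared in HP1γ KO and WT cells with Treg, where 6.48% of all peaks were higher and 5.38% lower. Receptors and kinases (146 peaks) had 8 higher and 13 lower, with Jak2 at 2.70 kb downstream at 1.77 and Il12rb2, a chain of the interleukin-12 receptor, at 55.7 kb upstream at -2.17.
Factors known to act positively on Il10 (230 peaks) had 25 higher and 16 lower. Nfil3 had 1.67 in its TSS peak, Batf 1.48 at 26.0 kb and Irf4 1.31 at 82.2 kb downstream, and Jun -1.62 at 16.0 kb upstream. Factors known to act negatively on it (184 peaks) had 7 higher and 11 lower, with Ets1 at 27.8 kb downstream at 1.90 and Bhlhe40 at 51.9 kb upstream at -1.95.
The ligand genes (32 peaks) had 5 higher and 4 lower, with Il6 at 92.5 kb upstream at 2.28, Il21 at 1.46 in its TSS peak and Il27 at 11.7 kb upstream at -2.12. Of the genes named from these lists, Jak2, Il12rb2, Irf4, Jun, Ets1, Bhlhe40, Il6 and Il21 also had called peaks in the direction opposite to the one printed. Of the 16 peaks of the AHR partner, repressor and targets, none was called. At the genes that flank Il10 (47 peaks), 1 was higher, at Mapkapk2 (1.46), and 2 were lower, at Dyrk3 (-1.06) and Eif2d (-1.24), while the median over these peaks was -0.23 and that of the 15 Il10 peaks 0.52.

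The genes whose TSS peaks varied most like those of the members were ranked by Pearson's r of the mean log2 CPM over the 12 groups, among 12390 genes with a TSS peak. For Il10 they were Fbxl2 (0.997), Gng4 (0.997), Trpc1 (0.996), Gzmk (0.996) and Ccl3 (0.996). For Maf they were Plekhb2 (0.992), Slc38a1 (0.989) and Cdkn2b (0.987), and for Ahr Zcchc4 (0.824), Lars2 (0.824) and Ldlrad4 (0.816). For Il27ra they were Mettl26 (0.998) and Gtf2h5 and Serac1, which share 1 peak (0.993). The 12 means include 4 of naive cells, which set most of the range at Il10 and Maf, so that these values describe the order of the groups only.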

How the data were processed

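ATAC-seq was performed on CD4 T cells of mouse spleen in 36 libraries, 12 groups of 3 by line, genotype and condition, as the labels give them. The authors deposited raw counts of reads per consensus peak, with no normalization, and the list of peak positions. According to the methods of the study, reads were trimmed with Trim Galore (version 0.6.7), aligned to GRCm39 with BWA-MEM2, filtered for duplicates and blacklisted regions, peaks were called per sample with HMMRATAC and merged, and reads were counted with featureCounts (version 2.0.3) with overlaps allowed, and a read can be counted in adjoining peaks. Of 71512 intervals, 3 without width were left out, and 0 per-sample columns were unused. The RNA-seq of the study was not analysed here.

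Peaks were assigned through GENCODE on GRCm39. The members, gene lists and tests were chosen with earlier results of these data known. Counts of each line were scaled by TMM, filtered with filterByExpr (71508 peaks for HP1γ, 71509 for the kept HP1α libraries and 71508 for all HP1α libraries) and tested two-sided in edgeR 4.0.16 on R 4.3.3 (quasi-likelihood F test) with Benjamini-Hochberg adjustment over all peaks of a comparison, in 17 comparisons. The biological coefficient of variation was 22.2%, 26.6% and 30.6% in these fits. CPM were computed from 1 TMM scaling of all 36 libraries, and log2 CPM used a prior count of 2. Depth, from 1.49 to 96.8 M (mega) reads per library, limits precision, most in the HP1α libraries with Treg. Peaks given in full were, for each gene, the TSS peak, the 3 with the smallest p between HP1γ KO and WT with Treg, and the 1 with the smallest p between HP1γ WT Tconv and naive cells and between HP1α KO and WT with Treg. Some items, among them a list of signalling genes, are not reported here. From the pathway lists up to 6 called peaks with the smallest adjusted p were eligible to be named. Other called or non-overlapping peaks were named after their values were seen. Sequences were read from the GRCm39 genome, and motifs were searched on both strands in the central 300 bases of each peak.

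Same-numbered libraries were checked for pairing by the correlation of their deviations from the group means. It was over 0.1 for all 3 numbers in HP1γ KO and WT with Treg (0.28, 0.15 and 0.32), in HP1γ WT with and without Treg (0.29, 0.20 and 0.23) and in HP1α naive cells. In HP1γ KO cells with and without Treg it was -0.05, -0.27 and -0.12. On simulated counts with 200 peaks changed by 2 on the log2 scale, the test recovered 89.5% for HP1γ KO and WT with Treg with 23 false calls, 48.0% for the kept HP1α libraries with Treg with 89 false calls, and 71.0% for all HP1α libraries with Treg with 22. Alternatives were DESeq2 1.42.0, library size alone, loess offsets (span 0.3), GC offsets, no filter on low counts, only the groups compared, the replicate block, log2 depth as a covariate, the nearest TSS of any gene, all HP1α libraries and each library left out. The earlier quasi-likelihood method of edgeR was added after seeing the data. Figures were drawn with matplotlib 3.10.9.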

Additional observations from a re-analysis of the deposited data

Results flagged for a closer look

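At Maf, 2 peaks passed the test of the difference between HP1α genotypes in their response to Treg. At 35.1 kb upstream of the Maf TSS the interaction term was -1.73 ± 0.30 (SE, adjusted p = 0.0493), with WT libraries from 13.9 to 16.1 CPM as Tconv and from 19.8 to 37.4 CPM with Treg, and KO libraries from 14.7 to 21.5 CPM and from 8.44 to 17.7 CPM. At 480.6 kb downstream the term was -1.59 (adjusted p = 0.049), with WT libraries from 8.67 to 10.1 CPM and from 13.4 to 23.0 CPM, and KO libraries from 9.68 to 10.6 CPM and from 8.05 to 14.3 CPM. The fits rest on the kept libraries, of which 1 is KO with Treg, and both calls were lost over all HP1α libraries. The part of depth was not tested apart from the covariate, under which 0 were called. No group was large enough for a test of single outlying libraries.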

How the results depend on the processing

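The counts of member peaks called were recomputed in 291 settings over 17 comparisons, and 205 stayed within 1.5 times the reported count. With the nearest TSS of any gene 24 members were left, and the counts were 3 for HP1γ KO and WT with Treg, 1 without Treg and 0 when naive. They were 19 and 19 for HP1γ WT and KO cells between Tconv and naive cells, 19 and 18 for HP1α WT and KO cells, and 1 for HP1γ KO cells between conditions with and without Treg. For HP1α they were 2 in the kept and 0 in all libraries for KO and WT with Treg, 3 for WT cells between conditions with and without Treg, and 0 for the interaction. With the earlier quasi-likelihood method the counts were 14, 2 and 11 for HP1γ KO and WT with Treg, without Treg, and for KO cells with and without Treg, and 1, 0 and 0 for HP1α KO and WT with Treg in the kept and in all libraries and the interaction. Fitting only the groups compared gave 1, 8 and 3 for HP1γ KO and WT Tconv, naive cells, and KO cells with and without Treg, and 0, 0 and 0 for the 3 HP1α results just named.

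With log2 depth as a covariate the HP1α counts were 0 for KO and WT with Treg in the kept libraries, 9 for WT and 1 for KO cells with and without Treg, and 0 for the interaction, and 0 for HP1γ naive cells. Over all HP1α libraries KO cells with and without Treg had 2, and the interaction 0. Library size alone gave 1 for all HP1α libraries with Treg and 1 for the interaction. Loess offsets gave 6 for all HP1α libraries with Treg, 1 for HP1α KO cells with and without Treg, 2 for HP1γ WT cells by Treg exposure and 0 for HP1γ naive cells. GC offsets gave 5 for all HP1α libraries with Treg and 1 for HP1γ WT cells by Treg exposure. DESeq2 gave 14 for HP1γ naive cells, 2 for HP1γ WT cells by Treg exposure and 1 for the HP1α interaction. The cause of these changes was not tested.

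With the replicate block the counts were 4 for HP1γ WT cells by Treg exposure, 0 for HP1γ naive cells and 1 for the HP1α interaction. With the block and GC offsets they were 2, 0 and 4 for these, 5 for all HP1α libraries with Treg and 1 for the HP1γ interaction. For the kept HP1α libraries between KO and WT with Treg, and for HP1α KO cells with and without Treg, the groups share 1 number, and a replicate block over all transferred groups, added after seeing the data, gave 16 and 4. The block moved no other count by over 1.5 times.

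When 1 library was left out, the counts ranged with HP1γ from 11 to 37 between genotypes with Treg, 1 to 14 without Treg and 0 to 1 when naive. They ranged from 11 to 29 for HP1γ KO and 0 to 3 for HP1γ WT cells by Treg exposure. For HP1α they ranged from 0 to 6 in the kept and 0 to 5 in all libraries with Treg, 0 to 3 for Tconv, 0 to 19 for WT and 1 to 2 for KO cells with and without Treg, and 0 to 2 for the interaction.

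Of 1363 settings of single peaks, 1230 kept direction and side of the threshold, 121 lost and 6 gained the call, and 6 turned sign. Those 6 were at Il27ra between HP1γ KO and WT with Treg, where no value was called. The exonic peak had from -0.374 to 0.039 when 1 library was left out. The TSS peak had -0.061 with library size alone, -0.065 with loess offsets and -0.094 with the depth covariate, and from -0.086 to 0.143 when 1 library was left out. The Il10 element at 18.8 kb downstream ranged from 1.69 to 2.16 and that at 20.1 kb upstream from 1.04 to 1.47 between HP1γ KO and WT with Treg, called in 16 of 16 settings each. In the kept HP1α libraries these lost their calls in 7 and 8 of 12 settings, with -0.67 and -0.56 without WT replicate 1.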
